A study of Sus scrofa with 6 samples.

Results

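The vessel genes described here are 8 of the 14900 mRNAs measured in the skin of the Bama pig, a Chinese breed that is white over the back and black at both ends of the body. They are VWF, NOS3, SOX18 and ETS1, taken as vessel markers, PDGFB, PDGFD and PDGFRB of the PDGF pathway, and the receptor NOTCH2. The members were chosen by symbol, and their rows were found through the identifiers that the supplementary lists of the study pair with these symbols, which located all 8. Poly(A) RNA was sequenced from 3 female Bama pigs aged 2 years, unrelated to each other. Each pig gave a white sample, cut from the back, and a black sample, cut from the buttock, both 8 mm deep, so that n = 3 for either skin. Samples are named by skin and pig, so that white 1 and black 1 come from the same animal. Skin color and body site differ together, so their contributions cannot be told apart. The values are FPKM, which scale fragments by transcript length and by the mapped fragments of the library, and the number of reads behind each of them is unknown.

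Blood vessels are lined by endothelial cells and wrapped by mural cells, which are the pericytes of capillaries and the smooth muscle cells of larger vessels. Endothelial cells release the growth factor PDGF-B, which binds PDGFRB on pericytes and holds them at the vessel wall. Notch receptors pass signals between touching cells and take part in the choice between arterial and venous identity and in the maturation of mural cells.

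All 8 genes had lower FPKM in white skin than in black skin, and for each of them the highest white sample lay below the lowest black sample. The mean in black skin exceeded that in white skin by 2.58-fold for NOTCH2 to 10.5-fold for NOS3. A log2 fold change is white minus black on log2(FPKM + 0.5), which understates the change of genes with low FPKM. An mRNA was taken as changed at a limma p under 0.05 after Benjamini-Hochberg (BH) adjustment over all mRNAs, with a log2 fold change beyond 1 in either direction. By this rule 6 of the 8 genes fell in white skin, against 6.24% of all 14900 mRNAs in either direction and 3.62% lower in white. The white samples lay below the black samples for 25.7% of all mRNAs. The members bear symbols from lists of genes that the study had called on these samples, so nothing is read from these shares. A change in bulk skin can come from fewer cells of a type or from less RNA per cell, and these cannot be told apart.

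**Figure D1:**
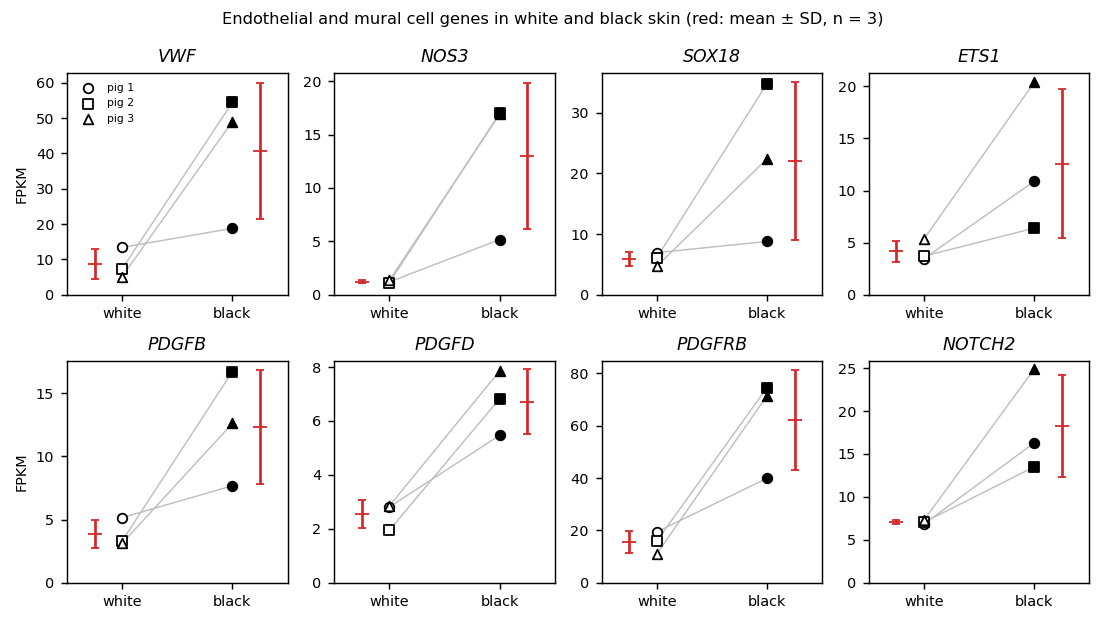
FPKM of the 8 genes (linear axes from 0) in white skin (open symbols) and black skin (filled symbols) of pigs 1, 2 and 3, with grey lines joining the samples of a pig and red marks giving the mean ± SD (n = 3). Each line rises from white to black, and black skin of pig 1 is the lowest black sample in 6 of the 8 panels.

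VWF encodes von Willebrand factor, a clotting protein that endothelial cells store and secrete. Its FPKM was 13.4, 7.37 and 5.15 in white 1, 2 and 3, and 18.8, 54.4 and 49.0 in black 1, 2 and 3. Black 1 stood well under the other black samples and close to white 1, although the groups did not overlap. White skin had a mean of 8.63 ± 4.25 and black skin one of 40.7 ± 19.2 (SD, n = 3 each), and the log2 fold change was -2.14 (SE 0.47, limma BH adjusted p = 0.0401). Within pigs the log2 difference was -0.48 in pig 1, -2.80 in pig 2 and -3.13 in pig 3. The row of VWF, ENSSSCG00000000712, is named VWF in the lists of the study and ANO2 in the Ensembl name table, and the locus that the study gives spans VWF and overlaps ANO2 in RefSeq. The RefSeq gene VWF lies on chromosome 5 of the assembly Sscrofa11.1 from 64516627 to 64655938.

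NOS3 (ENSSSCG00000016450, chromosome 18 from 6209218 to 6228912) encodes the endothelial nitric oxide synthase, which makes the gas that relaxes vessel walls. It was at 1.21, 1.14 and 1.37 FPKM in white 1, 2 and 3, and at 5.17, 17.0 and 16.9 in black 1, 2 and 3. The white samples lay close together, and black 1 was again the lowest of the black samples. The log2 fold change was -2.79 (SE 0.45, limma BH adjusted p = 0.0192), the largest decrease of the 8 genes. The locus listed by the study also overlaps ATG9B in RefSeq.

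SOX18 and ETS1 encode transcription factors of endothelial cells, and SOX18 also acts in lymphatic vessels and hair follicles. SOX18 (ENSSSCG00000037865, chromosome 17 from 62869868 to 62871758) had an FPKM of 6.95, 6.09 and 4.69 in white 1, 2 and 3, and of 8.79, 34.8 and 22.4 in black 1, 2 and 3. The groups did not overlap, but black 1 lay near the white samples. Its log2 fold change of -1.63 did not pass the threshold (SE 0.46, limma BH adjusted p = 0.0712). Its locus in the study also overlaps TCEA2 and RGS19, whose reads may be counted with it.

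ETS1 (ENSSSCG00000015235, chromosome 9 from 55377264 to 55512180) is also expressed in lymphocytes. Its FPKM was 3.47, 3.71 and 5.36 in white 1, 2 and 3, and 10.9, 6.40 and 20.4 in black 1, 2 and 3. Here black 2 was the lowest of the black samples and black 3 the highest. The log2 fold change of -1.36 did not pass the threshold without the pig in the model (SE 0.41, limma BH adjusted p = 0.0824). With the pig as a block it did (SE 0.29, limma BH adjusted p = 0.0400).

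PDGFB (ENSSSCG00000033327) encodes the ligand that endothelial cells release to recruit pericytes. Both the lists of the study and the Ensembl name table call the row PDGFB, and the RefSeq gene that overlaps its locus in the study is STEAP1. RefSeq gave no position for PDGFB, so the locus does not bear out the name of the row. It was at 5.15, 3.30 and 3.12 FPKM in white 1, 2 and 3, and at 7.67, 16.7 and 12.6 in black 1, 2 and 3. The highest white and the lowest black value came from the same animal, pig 1. White skin had a mean of 3.86 ± 1.12 and black skin one of 12.3 ± 4.52 (SD, n = 3 each), and the log2 fold change was -1.52 (SE 0.34, limma BH adjusted p = 0.0417).

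PDGFD (ENSSSCG00000014994, chromosome 9 from 34388636 to 34621227) encodes another ligand of PDGFRB, which is secreted in a latent form. Its FPKM was 2.81, 1.95 and 2.85 in white 1, 2 and 3, and 5.47, 6.83 and 7.86 in black 1, 2 and 3. Relative to their mean, its black samples differed less from each other than those of the other members. The log2 fold change was -1.25 (SE 0.27, limma BH adjusted p = 0.0388).

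PDGFRB (ENSSSCG00000022741, chromosome 2 from 151155753 to 151192818) encodes the receptor of both ligands and is a marker of pericytes that fibroblasts also express. It had the highest mean FPKM of the 8 genes in both skins. Its FPKM was 19.4, 15.9 and 11.0 in white 1, 2 and 3, and 39.9, 74.5 and 71.4 in black 1, 2 and 3. Black 1 lay between white 1 and the other black samples. White skin had a mean of 15.4 ± 4.22 and black skin one of 62.0 ± 19.1 (SD, n = 3 each), and the log2 fold change was -1.95 (SE 0.32, limma BH adjusted p = 0.0199).

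NOTCH2 (ENSSSCG00000006709, chromosome 4 from 100951522 to 101152348) encodes a Notch receptor found in mural cells and in many other cells of the skin. Its FPKM was 6.83, 7.04 and 7.30 in white 1, 2 and 3, and 16.3, 13.5 and 24.9 in black 1, 2 and 3. The white samples were nearly equal, and black 2 rather than black 1 was the lowest black sample, as for ETS1. The log2 fold change was -1.26 (SE 0.27, limma BH adjusted p = 0.0369), close to that of PDGFD.

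The calls depended on scaling and on single samples. Quantile normalization, which moved the median log2 fold change of all mRNAs from -0.31 to -0.03, left NOS3 and PDGFRB past the thresholds, 2 of the 8, where 4.70% of all mRNAs were called, 1.46% lower and 3.24% higher in white. Upper-quartile scaling, with a median of -0.13, left VWF, NOS3 and PDGFRB, where 5.72% were called, 1.97% lower and 3.74% higher. With the pig as a block, 7 of the 8 passed, and 1439 mRNAs in all were called in place of 930, which is 9.66%, with 6.42% lower and 3.23% higher. Without black 1 there were 6 called members, with SOX18 in and NOTCH2 out. Without white 1 only PDGFRB was called, and without white 2, white 3, black 2 or black 3 limma called none of the 8, although 7 or 8 of them had an unadjusted p below 0.05 and a log2 fold change beyond 1 in each of these fits. All 8 log2 fold changes stayed below 0 in each of these fits.

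**Figure D2:**
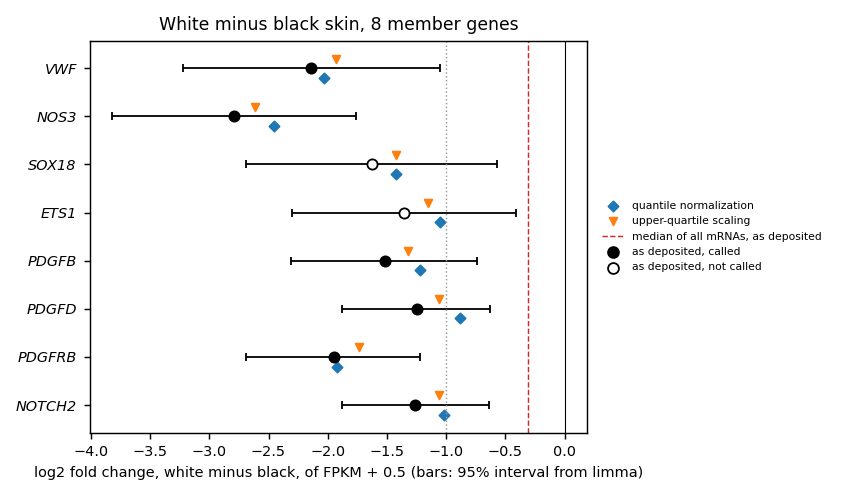
Log2 fold change of the 8 genes, white minus black skin, on the log2(FPKM + 0.5) scale, with the 95% interval from limma for the deposited values (circles, filled where called) and the values after quantile normalization (diamonds) and upper-quartile scaling (triangles). All values lie left of 0 and of the dashed median of all mRNAs at -0.31, and the only one right of -1 is that of PDGFD after quantile normalization, at -0.88.

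In the order of mean FPKM, PDGFRB and VWF stood first and second in both skins. In white skin the order then ran NOTCH2, SOX18, ETS1, PDGFB, PDGFD and NOS3, and in black skin SOX18, NOTCH2, NOS3, ETS1, PDGFB and PDGFD. NOS3 was thus the lowest of the 8 in white skin, at 1.24 ± 0.117 (SD, n = 3), and ahead of ETS1, PDGFB and PDGFD in black skin, at 13.0 ± 6.81. Neighbours in the order overlapped over the samples, except PDGFB with PDGFD and PDGFD with NOS3 in white skin.

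The vessel markers were set against the PDGF ligands and receptor by their means of log2(FPKM + 0.5). The mean over VWF, NOS3, SOX18 and ETS1 was 2.36, 2.12 and 2.08 in white 1, 2 and 3, and 3.37, 4.46 and 4.67 in black 1, 2 and 3. That over PDGFB, PDGFD and PDGFRB was 2.85, 2.42 and 2.37 in white skin and 3.65, 4.40 and 4.32 in black skin. Both rose from white to black in each pig and were lowest in pig 1 among the black samples. White minus black came to -1.98 ± 0.85 (SD over 3 pigs) for the vessel markers and -1.58 ± 0.67 for the PDGF genes. The mean of the vessel markers differed more in each pig, by -0.21, -0.35 and -0.64 in pigs 1, 2 and 3, a mean of -0.40 ± 0.22 (SD, n = 3). Since the members were picked with results known, this difference was given no test. Without VWF, whose row has 2 names, it was -0.35, an alternative added after the values were seen. NOS3 had the largest decrease of the members (log2 fold change -2.79), with -1.73, -3.42 and -3.22 in pigs 1, 2 and 3. VWF was at -0.48, -2.80 and -3.13, SOX18 at -0.32, -2.42 and -2.15, and ETS1 at -1.52, -0.71 and -1.84. The PDGF means were -0.80, -1.99 and -1.94, so VWF and SOX18 in pig 1 and ETS1 in pigs 2 and 3 differed less. The difference without NOS3 was not computed, so it is not shown to hold without that gene. The genes of the groups were mixed in their log2 fold changes, with PDGFRB at -1.95 and SOX18 and ETS1 at -1.63 and -1.36.

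Over the 6 samples, log2(FPKM + 0.5) of the members followed each other to different degrees. VWF, NOS3, SOX18, PDGFB and PDGFRB had a Pearson's r of 0.94 to 0.99 with each other, highest between VWF and PDGFB. ETS1 and NOTCH2, whose lowest black sample was black 2, had an r of 0.96 with each other, against 0.54 between SOX18 and ETS1. These values rest on 6 samples that share the contrast of the skins and the libraries, and they carry no p.

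Among 10851 other named mRNAs with a mean FPKM of at least 1, the pattern of each member had 246 to 439 with an r above 0.95. The closest to VWF was ACE (r = 0.9997, n = 6 samples), which encodes the angiotensin-converting enzyme of the endothelial surface, followed by CMIP and CLIP3. NOS3 was closest to SCAMP4, TMEM184B and PDE1A. SOX18 was closest to RINL, TIE1 and EBF3, of which TIE1 encodes an endothelial receptor. ETS1 was closest to ZMIZ1, ADAM9 and PDGFRA. PDGFB was closest to PKIG, GJA4 and LPCAT4, of which GJA4 encodes a gap junction protein of arterial endothelium. PDGFD was closest to ITPR2, GLI2 and STK10, and NOTCH2 to TNPO3, CHST14 and GTPBP2. APOBR and PPP1R16B were among the closest to PDGFRB.

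Other genes of vessels were taken from lists of 92 symbols, 85 of which were found in the table. Of the 85, 24 fell and 5 rose in white skin, and 56 did not pass the test, with a median log2 fold change of -1.25 against -0.31 for all mRNAs. Over all mRNAs, 3.62% fell and 2.62% rose. After quantile normalization 9 fell and 2 rose, where 1.46% of all mRNAs fell and 3.24% rose. After upper-quartile scaling 14 fell and 5 rose, where 1.97% of all mRNAs fell and 3.74% rose. A block for the pig gave 38 lower and 5 higher, where 6.42% of all mRNAs fell and 3.23% rose. The lists contain PDGFB, PDGFD, PDGFRB and NOTCH2, and were drawn up with some of these genes' values known.

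All 24 measured genes of the endothelial surface list had a negative log2 fold change, with a median of -1.63. Of the 24, 10 fell, 6 after quantile normalization and 17 with a block for the pig. The shares of all mRNAs that fell in these fits were 3.62%, 1.46% and 6.42%. The white samples lay below the black samples for 18 of the 24, against 25.7% of all mRNAs. The skins overlapped for the other 6, which were EMCN, ESAM, MMRN2, SELP, ACKR1 and CALCRL, named after their values were seen. In pig 1, EMCN and CALCRL were slightly higher in white than in black skin. Black 1 was the lowest black sample for 24 of 24. PECAM1, a junction protein of endothelial cells, had an FPKM of 20.8, 18.8 and 25.7 in white 1, 2 and 3, and of 54.1, 94.0 and 108 in black 1, 2 and 3 (log2 fold change -1.90, limma BH adjusted p = 0.0180). CDH5, the cadherin of endothelial junctions, was at 6.96, 5.21 and 3.56 in white skin and 10.6, 29.1 and 25.4 in black skin (log2 fold change -1.87, limma BH adjusted p = 0.0401). PLVAP, of the diaphragms of fenestrated vessels, and ENG, a TGF-beta co-receptor, also fell, with log2 fold changes of -2.13 and -1.81.

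Of 12 endothelial transcription factors, 4 fell, 2 after quantile normalization, and 8 did not pass, where 3.62% of all mRNAs fell, 1.46% after quantile normalization. All 12 had white samples below the black samples, as had 25.7% of all mRNAs. FLI1, a relative of ETS1, fell by 1.60 on the log2 scale, and KLF2, induced by blood flow, fell by 1.71. ERG and SOX17 had log2 fold changes of -1.09 and -1.55 that did not pass the test (limma BH adjusted p = 0.143 and 0.0683).

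Of 12 VEGF and angiopoietin genes, 2 fell, 0 after quantile normalization and 4 with a block for the pig, where 3.62%, 1.46% and 6.42% of all mRNAs fell. KDR, the main VEGF receptor, was at 2.03, 3.52 and 1.61 FPKM in white skin and 5.16, 11.3 and 14.9 in black skin (log2 fold change -1.86, limma BH adjusted p = 0.0440). FLT1 and ANGPT2 did not pass, with log2 fold changes of -1.24 and -1.17. TEK and TIE1, the angiopoietin receptor and its partner, had -1.13 and -1.85 and passed with the pig as a block (limma BH adjusted p = 0.0475 for each). Upper-quartile scaling also left 0 called, and 3 of the 12 after quantile normalization and 5 after upper-quartile scaling had an unadjusted limma p below 0.05 with a log2 fold change beyond 1. Of 3 lymphatic genes measured, limma called none without the pig in the model, where 2 had an unadjusted p below 0.05 with such a fold change, and 2 with it.

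In the PDGF family of 6 genes, 3 fell, all of them members, and 1 after quantile normalization or upper-quartile scaling, which was PDGFRB. Of all mRNAs 3.62% fell, 1.46% after quantile normalization and 1.97% after upper-quartile scaling. PDGFRA, the receptor of fibroblasts, had an FPKM of 1.22, 1.05 and 2.07 in white skin and 6.08, 3.39 and 16.1 in black skin. Its log2 fold change of -1.98 passed only with the pig as a block (limma BH adjusted p = 0.0585 without and 0.0252 with it,). The ligand PDGFA overlapped between the skins (log2 fold change -0.32), and PDGFC had -0.76 and did not pass.

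Of 13 Notch genes, 2 fell, NOTCH2 and HEYL, a target gene of Notch (log2 fold change -1.27, limma BH adjusted p = 0.0409), and 4 with a block for the pig. The shares over all mRNAs were 3.62% and 6.42%. After quantile normalization and after upper-quartile scaling limma called 0 of the 13, where 2 and 5 had an unadjusted p below 0.05 with a log2 fold change beyond 1. In these fits 1.46% and 1.97% of all 14900 mRNAs were called lower, and 809 and 1016 were lower by the unadjusted p with that fold change. NOTCH4, expressed in endothelium, and the target gene HEY1 had -1.72 and -1.34 and passed with the pig as a block (limma BH adjusted p = 0.0432 and 0.0398). NOTCH3, the receptor of vascular smooth muscle, and the arterial ligand DLL4 had -0.75 and -1.39 and did not pass. NOTCH1 and the ligand JAG1 overlapped between the skins, with -0.36 and -0.13, and the sign of JAG1 turned with quantile normalization and upper-quartile scaling.

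**Figure D3:**
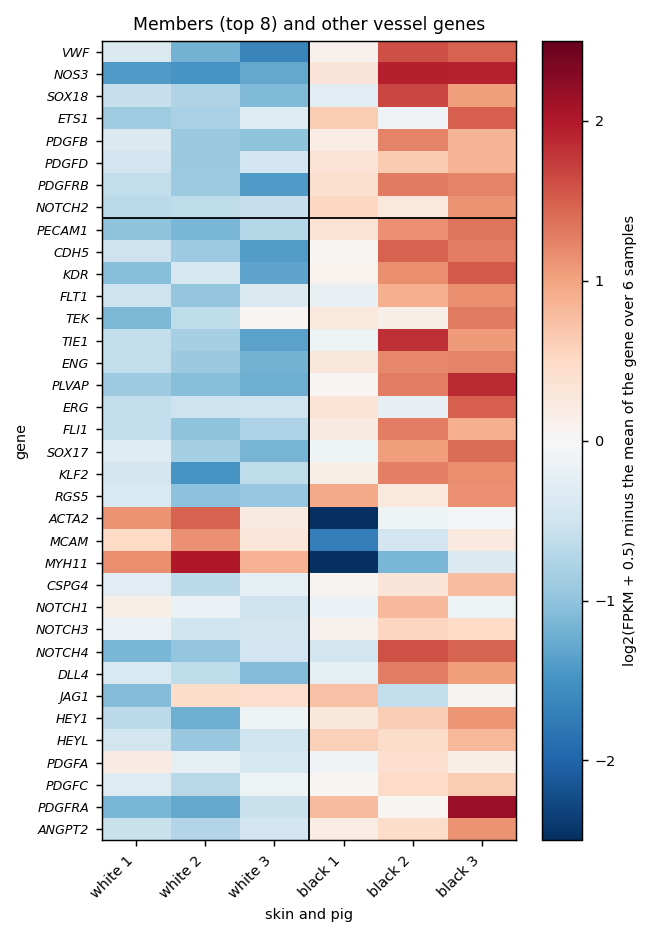
Log2(FPKM + 0.5) of the 8 members (above the line) and 28 other vessel genes in each sample, minus the mean of the gene over the 6 samples, with colours clipped at 2.5 in either direction. Most rows are low in white and high in black skin, with black 1 the palest black sample, while ACTA2, MCAM and MYH11 run the other way.

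The mural list did not move in one direction. Of its 16 genes, 3 fell and 5 rose in white skin, 0 and 2 with quantile normalization (3 and 6 by the unadjusted limma p), and the median log2 fold change was -0.75. Among all mRNAs 3.62% fell and 2.62% rose, 1.46% and 3.24% with quantile normalization. RGS5, a pericyte marker, was at 10.9, 6.81 and 7.27 FPKM in white 1, 2 and 3, and at 28.2, 17.3 and 32.4 in black 1, 2 and 3 (log2 fold change -1.57, limma BH adjusted p = 0.0298). MYH11, the smooth muscle myosin, was at 692, 1248 and 568 in white skin and 52.6, 140 and 242 in black skin (log2 fold change 2.69, limma BH adjusted p = 0.0320). ACTA2 and MCAM also lay higher in every white sample, with log2 fold changes of 1.88 and 1.31 that did not pass, and CSPG4, a pericyte proteoglycan, had -0.78 and did not pass.

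The other 6 genes of the mural list past the thresholds were singled out after their values were seen. GUCY1A3 and GUCY1B3, the subunits of the nitric oxide receptor, fell by 1.47 and 1.49 on the log2 scale. DES, CNN1, TAGLN and LMOD1, of the contractile apparatus and filaments of muscle, rose by 3.77, 3.41, 1.88 and 1.95. Smooth muscle outside vessels, such as the muscle that erects the hair, expresses these genes too. Summed over the list, the FPKM was 4025 to 6368 in the white and 588 to 1723 in the black samples. ACTA2, MYH11, TAGLN, CNN1 and DES had the highest mean FPKM of the list in both skins, so the sum mostly follows them. Of the 16 genes, 9 had a negative log2 fold change and 7 a positive one. The skins did not overlap for 13 of the 16 genes, 6 with white below and 7 with white above black, against 35.3% of all mRNAs in either direction and 9.62% with white above.

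**Figure D4:**
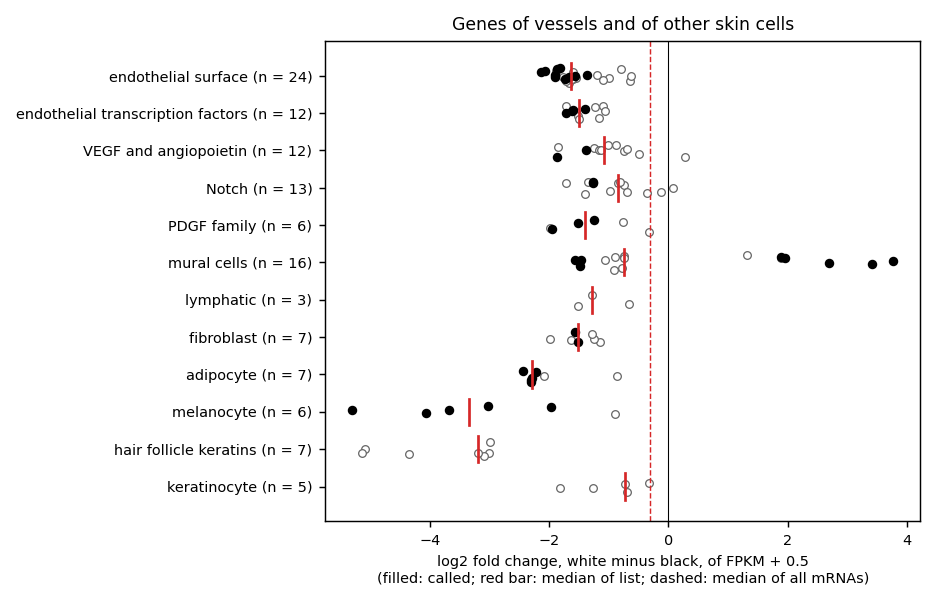
Log2 fold change, white minus black skin, of each measured gene by list (filled where called by limma), with the median of each list in red and that of all mRNAs dashed. The endothelial lists lie left of 0, and the mural list is split, with 5 called genes between 1.88 and 3.77.

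Markers of some other cells of the skin also lay lower in white than in black skin, with other orders among the black samples. The share of all mRNAs that fell was 3.62%. Summed FPKM of 7 adipocyte genes was 150 to 536 in white and 840 to 2005 in black skin, where 5 of the 7 fell in white skin. For 7 fibroblast genes the sum was 2280 to 4834 in white and 6005 to 10326 in black skin, and 2 fell. For 6 melanocyte genes it was 1.33 to 1.64 in white and 30.3 to 161 in black skin, and 5 fell. Samples of a skin were unlike each other in hair follicle keratins, with a sum of 171, 0.149 and 117 FPKM over 7 genes in white 1, 2 and 3, and 9897, 430 and 220 in black 1, 2 and 3. Black 1, the lowest black sample for all 24 endothelial surface genes, was the highest for all 7 of these keratins and for 5 of the 6 melanocyte genes. Black 2 was the lowest for all 7 adipocyte genes and for 6 of the 7 fibroblast genes. Of these 7 keratins limma called 0, while 5 had an unadjusted p below 0.05 with a log2 fold change beyond 1. Of 5 keratinocyte genes it called 0, also 0 by the unadjusted p with that fold change, and their sum overlapped between the skins, with 120 to 726 in white and 383 to 979 in black skin. Of 6 blood and immune genes 1 fell, and the sum was 80.3 to 346 in white and 233 to 624 in black skin. The part of these cells in the differences of the 8 genes was not tested.

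**Figure D5:**
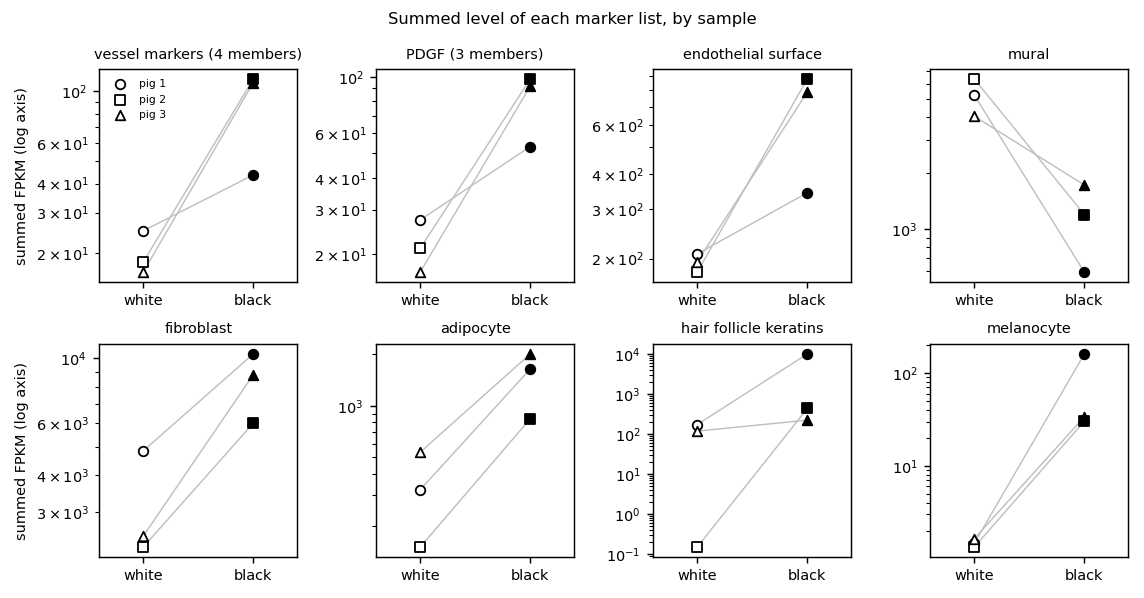
Summed FPKM of each list (log axes with separate ranges) in white and black skin of pigs 1, 2 and 3, with lines joining the samples of a pig. The sums rise from white to black in each pig for all lists shown except the mural list, which falls from between 4025 and 6368 to between 588 and 1723. The mural sum mostly follows its genes of highest FPKM, and 9 of its 16 genes had a negative log2 fold change.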

How the data were processed

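RNA of 6 skin samples was made into strand-specific poly(A) libraries and sequenced by the authors. The methods name TopHat for alignment to Sscrofa11.1, while the submitters' processing notes list HISAT2 2.0.4. The deposited values are FPKM, which the authors calculated with StringTie 1.3.3, keeping mRNAs above 0.5 and lncRNAs above 0.1 FPKM in at least 1 sample. No further scaling between samples is stated. The paper reports the reads per sample, but the deposited values hold no counts per gene. The reads behind each value are thus unknown, and no counting interval was computed. The mRNA values of a sample added up to 408598 to 501424 FPKM.

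The skins were compared by limma 3.58.1 (trend option, R 4.3.3) on log2(FPKM + 0.5) over all 14900 mRNAs with Benjamini-Hochberg adjustment, after the fit was tested on simulated data. The samples are paired by pig, from their titles, and deviations from the skin means correlated within pigs 1, 2 and 3 with an r of 0.208, 0.360 and 0.204 across mRNAs. As in the study, the pig was left out of the model, and a block for it was an alternative. Other alternatives were pseudocounts of 0.1 and 1, quantile and upper-quartile scaling, a mean FPKM of at least 1, no trend, and leaving out each sample.

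Names came from the lists of the study for the members and listed genes they hold, and otherwise from the Ensembl name table, for 12419 of 14900 mRNAs. RefSeq gave the positions of 7 members. Named genes are the 8 members, 28 genes of the lists and, per member, the 3 named mRNAs of highest r, of which 1 is not reported here. Members and lists were chosen with earlier results of these data known.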

Additional observations from a re-analysis of the deposited data

How the results depend on the processing

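The counts of mRNAs past the thresholds were sensitive to the fit and to single samples. For all mRNAs the count was 930, 1439 with the pig as a block, and 35 to 847 with 1 sample left out, the lowest without white 2. For the 8 members it was 6, with 2 after quantile normalization, 3 after upper-quartile scaling and 0 to 6 with 1 sample left out. For the genes of the vessel lists it was 29, with 11 after quantile normalization, 19 after upper-quartile scaling and 1 to 39 with 1 sample left out, the lowest without white 2. Leaving out both samples of a pig, an alternative added after the data were seen, left 0 mRNAs in all without pig 1, 4 without pig 2 and 3 without pig 3, and 0 members and 0 genes of the vessel lists in each case. By the unadjusted limma p and the same fold, 7 of the 8 members passed in each of these fits, and 2561, 1770 and 2103 of all mRNAs and 62, 39 and 47 genes of the vessel lists passed without pigs 1, 2 and 3. These fits hold fewer samples, with 2 per skin. The block for the pig changed the call of ETS1 among the members and of TEK, TIE1, PDGFRA, NOTCH4 and HEY1 among the other named genes of the lists, and it changed no other call among these. The difference between vessel markers and PDGF genes lay between -0.56 and -0.25 with 1 sample left out. Of the members and other named genes of the lists, JAG1 alone changed sign, from -0.13 to 0.06 with quantile normalization, 0.08 with upper-quartile scaling, 0.39 without white 1, 0.21 without black 1 and 0.72 without both samples of pig 1, with a range of -0.46 to 0.39 over the fits that leave out 1 sample. The cause of these shifts was not tested.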

Other observations

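Further muscle genes were looked up after the values of the mural list were seen. Of 6 genes of smooth muscle, 3 rose in white skin, where 2.62% of all mRNAs rose, and all 6 had a positive log2 fold change. MYLK, the myosin light chain kinase, had an FPKM of 628, 963 and 648 in white 1, 2 and 3, and of 42.5, 37.3 and 40.0 in black 1, 2 and 3 (log2 fold change 4.18, limma BH adjusted p = 0.000880). ACTG2, the actin of visceral smooth muscle, was at 924, 1132 and 997 in white skin and 27.0, 80.7 and 187 in black skin (log2 fold change 3.76, limma BH adjusted p = 0.0185), and SMTN rose by 1.15. Of 10 symbols of skeletal muscle 3 were found in the table, and 1 of these, CKM, rose, by 3.89. ACTA1 and TNNC2 overlapped between the skins and did not pass, with log2 fold changes of 0.53 and 0.55 (limma BH adjusted p = 0.528 and 0.271). Both were low, with 0.0298, 0.194 and 1.77 FPKM for ACTA1 and 0.796, 0.816 and 1.10 for TNNC2 in white 1, 2 and 3.

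Within 100 kb of the 7 members with a position, 7 lncRNAs of the deposited table lay near 5 members. TCONS_00079095, 95056 bp from VWF, was at 2.20, 2.22 and 1.89 FPKM in white 1, 2 and 3, and at 0.729, 1.34 and 1.80 in black 1, 2 and 3, so that it lay higher in white skin where VWF lay lower. TCONS_00072626, 11941 bp from NOTCH2, was listed at 0 in the white samples and at 0.518, 0.141 and 0.220 in black 1, 2 and 3. The other 5 overlapped between the skins, and no test was run on these lncRNAs. The share of all lncRNAs without overlap was not computed, so nothing is read from these patterns. For mRNAs that share was 35.3% in either direction.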
